A study of Mus musculus with 25 samples.

Results

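The cytosolic ribosomal protein genes were described in left ventricular tissue of mice. The members were the protein_coding genes of GENCODE mouse release M21 (build GRCm38) whose symbols start with Rpl or Rps and a digit, together with Rplp0, Rplp1, Rplp2 and Rpsa, while the Rps6k kinases and Rps19bp1 were left out. The rule gave 91 genes, 57 named for the large and 34 for the small subunit, of 35969 genes in the table. It used symbols and gene types and no measured value. Of the 91 genes, 85 had a mean level of at least 1 and were tested.

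RNA was measured in 25 male mice in 5 groups of 5. WT and GPx4+/- littermates, the latter carrying 1 disrupted allele of the lipid peroxide reductase GPx4 and kept by crossing to C57BL6/J, started at 8 to 10 weeks of age on control chow (CNTL) or on a high fat high sucrose diet (HFHS), which lasted 16 weeks. Both genotypes were kept on each diet (WT CNTL and WT HFHS, GPx4+/- CNTL and GPx4+/- HFHS), and the fifth group, WT HFHS + Carnosine, had 80 mM carnosine in the drinking water from week 7, and GPx4+/- HFHS mice given carnosine were not analysed here. The labels name the tissue as heart and, for the RNA extraction, as left ventricular, and no cell type was separated, so all cell types of the sample were measured together. Levels are the deposited TPM, a share of all transcripts that is corrected for transcript length, summed per gene and divided by a scaling factor of each library (scaled TPM), so that levels of different genes are per transcript length.

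Ribosomal proteins are the structural proteins of the large and small subunits of the ribosome, which assemble with ribosomal RNA in the nucleolus. Most are made in equal numbers, and many of their mRNAs begin with a C followed by a run of C or T, the terminal oligopyrimidine (TOP) sequence, through which mTORC1 and the binding protein LARP1 control their translation. Mammalian genomes hold many processed pseudogenes of these genes, and a few members have paralogues of restricted expression, of which Rpl3l in heart and skeletal muscle is best known.

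Markers of heart muscle were high in all libraries. The 10 cardiomyocyte markers summed to between 56292 and 68262 scaled TPM in every mouse and the 6 lymphocyte markers to at most 2.70. Gpx4 itself lay between 251 and 383 scaled TPM in the 10 GPx4+/- mice and between 591 and 778 in the 15 WT mice, so each library matched its labelled genotype. The 6 atrial markers (Nppa, Myl4, Myl7, Sln, Bmp10 and Nr2f2) summed to over 500 scaled TPM in 5 mice, GPx4+/- CNTL 1 (7353), WT CNTL 3 (4574), GPx4+/- HFHS 4 (2701), GPx4+/- CNTL 2 (1486) and WT HFHS + Carnosine 2 (585), and to between 36.3 and 282 in the others. The hepatocyte markers summed to 1224 in GPx4+/- CNTL 2. Calls and medians of the members that move by over 1.5 times without these mice are also given without them.

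The tested members were abundant and spread over a wide range. Their median mean level was 281 scaled TPM, the middle 50% lay between 157 and 371, and 77 of the 85 exceeded 100. Among the highest were Rps29 of the small subunit (891), Rplp1 of the acidic stalk (796), Rps2 (609) and Rps15 (608). The other stalk proteins stood at 497 for Rplp0, the stalk's base, and 426 for Rplp2. Rpsa, which is also known as the laminin receptor, was at 347, Rps6, the substrate of the S6 kinases, at 256, and Rps27a, made as a fusion with ubiquitin, at 236. The lowest tested members were Rpl12 (5.18), Rpl5 (6.92) and Rps27rt (11.8), a 172-fold range from the lowest to the highest.

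**Figure D1:**
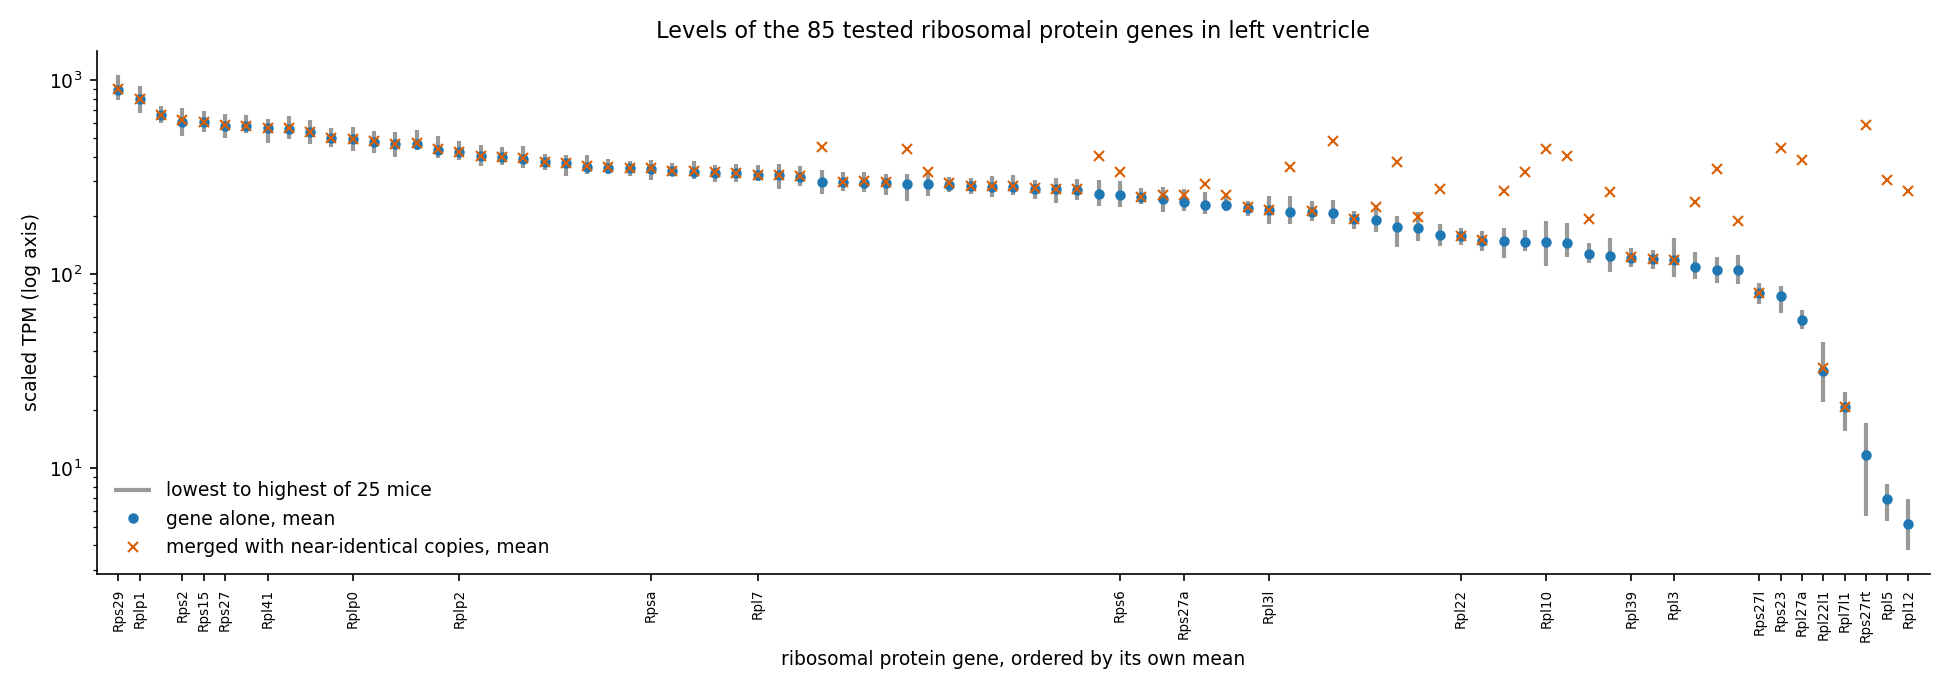
Level of each tested ribosomal protein gene on a log axis (scaled TPM), ordered by its own mean over 25 mice, with names for a selection of genes, the range over mice as a grey line and the mean after merging with near-identical copies as a cross. The dots fall from 891 for Rps29 to 5.18 for Rpl12, while the crosses of Rpl5 and Rpl12 lie near those of most other members.

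The 6 members that were not tested were at or near 0. Rpl10l, a testis-expressed retrogene of Rpl10, was listed at 0 in 23 of 25 mice, Rpl39l in 6, Rpl9-ps1 in 23, Rpl36-ps4 in 24, Rpl36a-ps1 in 19 and Rpl9-ps6 in 9, and none had a mean above 0.288 scaled TPM. The annotation gives 6 of the 91 members a pseudogene symbol (-ps) although it types them as protein_coding.

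Many members shared sequence with other genes that carried TPM of their own. Outside the members, 635 genes held at least 60% of their length in an alignment of at least 150 bases and 95% identity to a member's transcript, 614 of them processed pseudogenes, and 79 members had at least 1 such copy. Together the copies held 3510 scaled TPM against 24767 for the members, or 12.4% of both. Of the copies, 569 were under 1 and 15 over 100 scaled TPM, and for 10 members the copies summed to more than the gene itself. Reads from identical stretches cannot be told apart, so the division between a member and its copies is uncertain.

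Rpl5, a large subunit protein that binds 5S ribosomal RNA and also MDM2, was lower than its copy. The gene (chromosome 5, 107900502 to 107909005, plus strand) was at 6.92 scaled TPM, and Gm15500, a transcribed processed pseudogene on chromosome 7 (114705217 to 114706235, minus strand), at 297. The 894 coding bases of Rpl5 are found unchanged in the 1019 bases of Gm15500, whereas the Rpl5 transcript they were compared with is 2045 bases long. The first 60 coding bases are shown because both genes hold them in full, so that reads from them fit either gene.

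Rpl5 and Gm15500: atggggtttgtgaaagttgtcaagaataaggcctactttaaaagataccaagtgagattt

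Rpl12, the other large subunit protein at the bottom of the order, had the same arrangement. It was at 5.18 scaled TPM beside 255 for Gm10275 on chromosome 10 (29698746 to 29699380, minus strand), which carries all 498 coding bases of Rpl12 unchanged. Rps23, which lies at the decoding centre, was at 77.3 beside 364 for Rps23-ps1, and Rpl27a at 57.7 beside 327 for Gm7536. With each member merged with its copies, 82 groups had a mean of at least 1, and their range narrowed to 43.3-fold, from Rpl7l1 (20.8) to Rps29 (898). The merged level was 304 for Rpl5, 266 for Rpl12, 444 for Rps23 and 388 for Rpl27a, against a merged median of 332.

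The ratio of the upper to the lower quartile was 2.36 for members alone and 1.64 after merging.

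The transcript types were also uneven. Transcripts typed protein_coding carried a median of 99.4% of a tested member's TPM and over 95% in 68 members. In 6 members they carried under 50%, down to 6.41% for Rps16 and 11.3% for Rps20, both of the small subunit. For Rps16 the TPM lay in 2 transcripts typed retained_intron, of 628 bases (71.8 scaled TPM) and 518 bases (65.3), against 9.40 for the protein_coding transcript of 1109 bases. For Rpsa, 66.0% lay in 1 transcript typed nonsense_mediated_decay. These types are the annotation's, and the values were summed over all transcripts of a gene as the rule states.

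The start regions of 65 of the 91 members were found in the RefSeq table of 300-base windows (GRCm38.p6). A TOP start, here a C at the annotated start followed by at least 4 bases that are each C or T, was present in 14 of 65 members (21.5%) and in 3.01% of all 27025 genes in the table. With the C allowed up to 5 bases either side, the shares were 46.2% and 21.2%. CCGGAAG, searched on both strands as an ETS factor motif, was in 26 of 65 members and 9.93% of all genes, AAGATGG (YY1, both strands) in 10 of 65 (15.4%) and 7.28%, and TATAAA 20 to 40 bases before the start in 1.54% and 2.41%. The windows below run from 10 bases before to 16 bases from the annotated start, with the run that begins at the C in capitals, and show members with and without it among those described further on.

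Rps6 (in the 300-base window chr4:86857318-86857617, minus strand): gaagtcgggcCTCTTTTTCgtgacgc
Rplp2 (in the 300-base window chr7:141447401-141447700, plus strand): cagcgtcttcCTTTCgccgccggacg
Rps27 (in the 300-base window chr3:90213599-90213898, minus strand): cgctttcgctCCTTTCCggcggtgac
Rps27rt (in the 300-base window chr9:114982690-114982989, minus strand): ttatcccttgCTTTCCggcggtgacg
Rps27l (in the 300-base window chr9:66945836-66946135, plus strand): cctccccgccgCCTCTatcccggaag
Rpl22l1 (in the 300-base window chr3:28805258-28805557, plus strand): gcgcaagcccgttCTCTTCCCacggc
Rpl3l (in the 300-base window chr17:24727576-24727875, plus strand): ttctagctctgtcatttgacctctgg

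Rps6, Rplp2, Rps27 and its retrocopy Rps27rt held the run from the annotated start on. In Rps6, Rplp2 and Rps27 the bases just before the start were also C or T and are not in capitals. In Rps27l the run lay 1 base and in Rpl22l1 3 bases downstream, and Rpl3l held none within 5 bases of its start. The annotated start can differ from the start used in heart, so an absent run says only that these letters are not at this position.

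In each mouse the 91 genes summed to between 22942 and 27578 scaled TPM. The group means in WT mice were 25132 ± 1170 (SD, n = 5) on CNTL, 25090 ± 859 on HFHS and 24519 ± 1803 on HFHS with carnosine. In GPx4+/- mice they were 24961 ± 965 on CNTL and 24133 ± 1430 on HFHS. All groups overlapped, but the upper end of GPx4+/- HFHS and of WT HFHS + Carnosine was 1 mouse each.

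As a share of the TPM outside the mitochondrial genome the members took 4.25% ± 0.19 (SD, n = 5), 4.16% ± 0.21 and 4.00% ± 0.15 in the same order in WT mice. They took 4.26% ± 0.22 and 4.03% ± 0.24 in GPx4+/- mice on CNTL and HFHS. The share of all TPM ran from 2.33% ± 0.21 in GPx4+/- HFHS to 2.60% ± 0.19 in GPx4+/- CNTL. The groups overlapped on both of these scales too. In GPx4+/- HFHS, 4 mice lay between 23098 and 23906 scaled TPM and mouse 4, with an atrial marker sum of 2701, at 26624. Those 4 mice, whose mean was 23510 ± 375 (SD, n = 4), lay below every WT CNTL mouse (from 24031) and every WT HFHS mouse (from 24027), while GPx4+/- CNTL 2 (23565) lay among them. In WT HFHS + Carnosine, 4 mice lay between 22942 and 24366 and mouse 2, with an atrial marker sum of 585, at 27578. The mean of those 4 was 23754 ± 658 (SD, n = 4). These were also the mice with the highest atrial sum of their group, whereas in the CNTL groups GPx4+/- CNTL 2 (atrial sum 1486) had the lowest summed level of its group at 23565, and GPx4+/- CNTL 1 (25369) and WT CNTL 3 (24698) were neither lowest nor highest. The part of atrial tissue in the summed level was not tested.

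**Figure D2:**
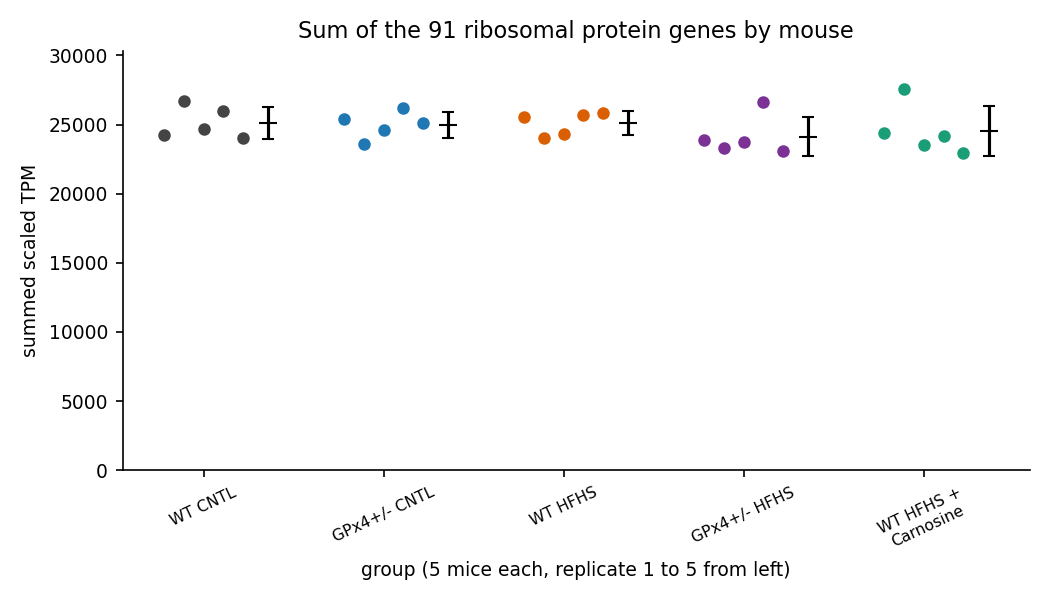
Summed level of the 91 ribosomal protein genes in each mouse (scaled TPM, axis from 0), with points for the 5 mice of each group and the mean ± SD beside them. All 25 mice lie between 22942 and 27578, and the highest mouse is in WT HFHS + Carnosine.

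Which genes answer to diet, to the GPx4 allele and to carnosine was tested with limma over all 11984 genes with a mean of at least 1, with Benjamini-Hochberg adjustment, in 8 contrasts. Of the 85 members, 0 were called in any of them at an adjusted p under 0.05. Diet over both genotypes (mean of both HFHS groups minus both CNTL groups) called 8.33% of all genes, and the members' smallest adjusted p was 0.0609. At an unadjusted p under 0.05 there were 9 members, all lower on HFHS, or 10.6% of the members against 24.5% of all genes. The median member difference was -0.03 (log2) against 0.00 for all genes tested, and 63 of 85 estimates were negative, against 50.9% of all genes. It was -0.05 with 71 negative with array weights and -0.05 with 72 negative after quantile normalization. With TPM as deposited it was -0.09 with 84 negative, where the median of all genes was -0.05. Per total outside the mitochondrial genome it was -0.06 with 80 negative, where the median of all genes was -0.03. With the settings reported, the 95% interval lay within ±0.5 for 84 members and within ±0.3 for 82, so larger diet differences than these were outside the interval for nearly all members.

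Rps27a, the ubiquitin fusion protein of the small subunit, had the smallest p. It measured 239, 260, 236, 260 and 234 scaled TPM in the 5 WT CNTL mice and 242, 248, 230, 246 and 244 in GPx4+/- CNTL. It measured 228, 228, 249, 232 and 232 in WT HFHS and 212, 229, 218, 232 and 228 in GPx4+/- HFHS. The ranges of the CNTL and HFHS mice overlapped through WT HFHS 3 and the lower CNTL mice. The difference was -0.09 (log2, SE 0.03, 95% interval -0.15 to -0.03, adjusted p = 0.0609 by limma). Merged with its copies it was -0.07 (95% interval -0.14 to 0.01, adjusted p = 0.245). On its own it was called without GPx4+/- CNTL 3 (adjusted p = 0.0459) or without WT HFHS 3 (adjusted p = 0.0401).

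Rps27, a small subunit protein with a zinc finger, came next. Its levels were 544, 637, 607, 641 and 570 scaled TPM in WT CNTL and 614, 556, 642, 666 and 624 in GPx4+/- CNTL. They were 568, 518, 541, 607 and 616 in WT HFHS and 517, 510, 521, 639 and 504 in GPx4+/- HFHS. The highest HFHS mouse was GPx4+/- HFHS 4, and the other 4 mice of its group lay below every CNTL mouse. The difference over both genotypes was -0.14 (SE 0.05, 95% interval -0.25 to -0.04, adjusted p = 0.0863), and -0.17 without GPx4+/- HFHS 4 (adjusted p = 0.0198). Merged with Rps27rt, whose 255 coding bases are identical, it was -0.14 (adjusted p = 0.0851).

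Rpl22l1, the paralogue of the large subunit protein Rpl22, had the largest estimate of any member in this contrast, -0.26 (SE 0.10, 95% interval -0.48 to -0.05, adjusted p = 0.115). It measured 31.4, 31.5, 38.3, 33.0 and 30.7 scaled TPM in WT CNTL, 42.0, 30.9, 44.7, 30.8 and 33.5 in GPx4+/- CNTL, 32.8, 22.0, 26.3, 33.1 and 30.3 in WT HFHS and 21.9, 32.7, 24.3, 38.5 and 28.2 in GPx4+/- HFHS. All 10 CNTL mice lay between 30.7 and 44.7, and 5 of the 10 HFHS mice were at 28.2 or less. Without GPx4+/- HFHS 4 the difference was -0.32 (adjusted p = 0.0482). Other members at an unadjusted p under 0.05 included Rpl24, Rps13, Rpl6, Rpl7a and Rpl14, with estimates between -0.09 and -0.06.

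**Figure D3:**
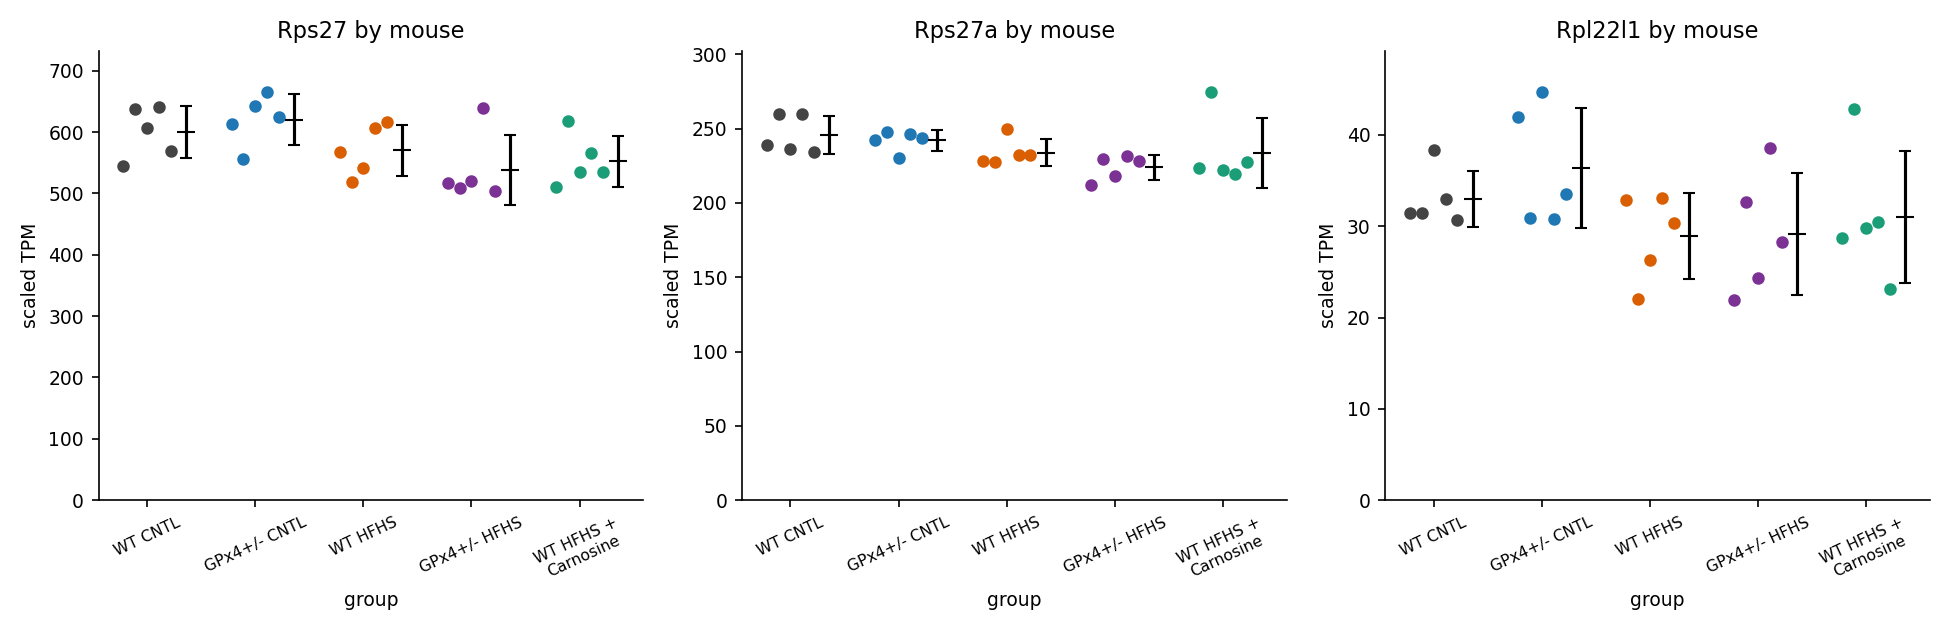
Levels of Rps27, Rps27a and Rpl22l1 in each mouse by group (scaled TPM, axes from 0), with the mean ± SD of 5 mice beside the points. The HFHS points overlap the CNTL points in each panel, and GPx4+/- HFHS 4 is the highest Rps27 value of its group at 639.

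The diet contrast within WT called 1.18% of all genes. The members' smallest p belonged to Rps13 (-0.13, SE 0.06, adjusted p = 0.281), Rps27l (-0.11, SE 0.05, adjusted p = 0.285) and Rpl5 (-0.23, SE 0.11, adjusted p = 0.286). Rps13 is a small subunit protein and Rps27l is the paralogue of Rps27 known as a p53 target. Merged with their copies the estimates were -0.07 for Rps13 (95% interval -0.18 to 0.04) and -0.02 for Rpl5 (95% interval -0.12 to 0.08). At an unadjusted p under 0.05 there were 4 members, 3 lower and 1 higher, or 4.71% of the members against 16.5% of all genes. The median member difference was -0.01 with 49 of 85 estimates negative, against 49.9% of all genes tested. With array weights it was -0.03 with 62 negative. Per total outside the mitochondrial genome it was -0.04 with 70 negative, where the median of all genes was -0.03.

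The diet contrast within GPx4+/- called 3.34% of all genes. At an unadjusted p under 0.05 there were 10 members, all lower on HFHS, or 11.8% of the members against 18.3% of all genes. Of the estimates 70 of the 85 estimates were negative, against 50.4% of all genes tested and 35.9% of the other 1405 genes above 50 scaled TPM. The median member difference was -0.06, against 0.00 for all genes and 0.04 for those 1405. The smallest p were those of Rps27 (-0.21, SE 0.07, 95% interval -0.36 to -0.06, adjusted p = 0.114) and Rps27a (-0.11, SE 0.04, adjusted p = 0.152), which merged with its copies was -0.07 (adjusted p = 0.534). Without GPx4+/- HFHS 4, Rps27 was -0.27 (adjusted p = 0.0236). Members rise and fall together from mouse to mouse, so the count of negative estimates, here and in the other contrasts, does not rest on 85 separate measurements.

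Leaving out the 5 mice with high atrial marker sums changed the diet calls. Over both genotypes 3 members were then called, Rpl36, Rpl27 and Rps27, where 7.36% of all genes were, and within GPx4+/- 2 were, Rpl36 and Rps27, where 2.28% of all genes were. All were lower on HFHS. The share of members called was thus near or below that of all genes. The median member difference was then -0.06 over both genotypes, and within GPx4+/- it was -0.11 with 79 of 85 estimates negative. Within GPx4+/- 3 CNTL and 4 HFHS mice were left. Those left out included the mouse with the highest summed level in GPx4+/- HFHS and the mouse with the lowest in GPx4+/- CNTL. Rps27 over both genotypes was -0.20 (adjusted p = 0.0181). Rpl36 and Rpl27, both of the large subunit, were named after their values were seen, and with all mice they were -0.07 (adjusted p = 0.273) and -0.10 (adjusted p = 0.222), and Rpl27 merged with its copies was -0.04. The atrial marker sum ranged from 132 to 4574 in WT CNTL, from 136 to 7353 in GPx4+/- CNTL, from 36.3 to 282 in WT HFHS and from 52.0 to 2701 in GPx4+/- HFHS.

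**Figure D4:**
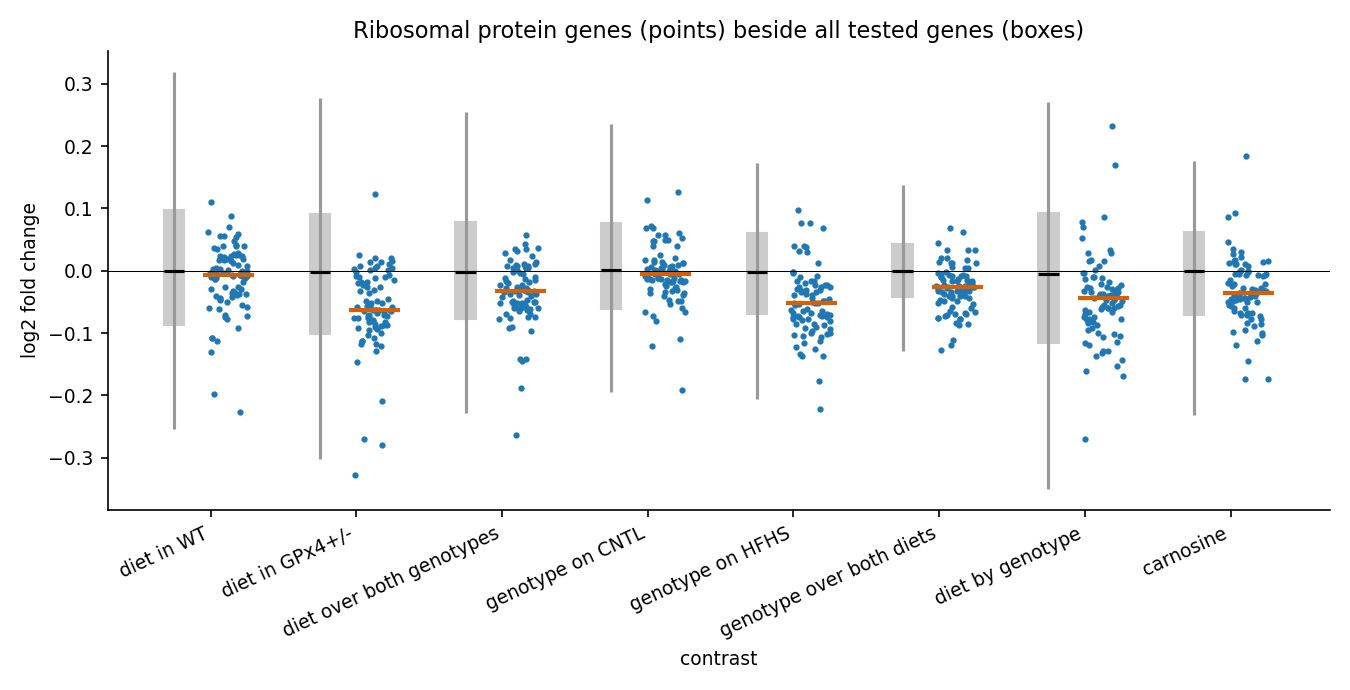
Log2 fold changes of the 85 tested ribosomal protein genes (points, orange line at their median) beside all 11984 tested genes (black line at the median, box over the middle 50%, grey line over the middle 90%) in 8 contrasts. The member medians lie between -0.06 and -0.01, the lowest for diet in GPx4+/-, and no point reaches a size of 0.4.

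The genotype contrasts called few genes of any kind. GPx4+/- minus WT on CNTL called 0.0501% of all genes, the same contrast on HFHS also 0.0501% and the contrast averaged across diets 0.0584%, and 0 of 85 members each time by limma under every alternative run. At an unadjusted p under 0.05 there were 1, 5 and 1 members, all lower in GPx4+/-, or 1.18%, 5.88% and 1.18% of the members against 6.28%, 4.57% and 3.90% of all genes. On CNTL the smallest p were those of Rpl7l1, a paralogue of Rpl7 (-0.19, SE 0.09, adjusted p = 0.788), Rpl41, which encodes the smallest ribosomal protein (-0.12, SE 0.07, adjusted p = 0.825), and Rpl11, which binds 5S ribosomal RNA with Rpl5 (0.07, SE 0.05, adjusted p = 0.857). The median member difference was -0.01 on CNTL, where it turned positive under 3 other scalings (0.03 with TPM as deposited, 0.01 per total outside the mitochondrial genome and 0.02 after quantile normalization). In the same order the median of all genes was 0.03, 0.01 and -0.0035, so that of these 3 only quantile normalization turned it relative to all genes. It was 0.00 without the 5 mice with high atrial marker sums.

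On HFHS the median was -0.05 and 75 of 85 estimates were negative, against 51.1% of all genes. It was also negative under those scalings, at -0.13 with TPM as deposited, where the median of all genes was -0.07. Without the 5 mice with high atrial marker sums, of which GPx4+/- HFHS 4 is in these groups, it was -0.09 and 76 estimates were negative. The smallest p were those of Rps26, a small subunit protein at the mRNA exit (-0.10, SE 0.04, adjusted p = 0.978), Rpl10a (-0.18, SE 0.08, adjusted p = 0.978) and Rps21 (-0.14, SE 0.06, adjusted p = 0.978). From protein_coding transcripts alone Rps26 was -0.0076, and Rpl10a merged with its copies was -0.06 on HFHS and -0.04 over both diets. Rps26 was between 154 and 157 scaled TPM in all 5 WT HFHS mice and 143, 131, 144, 153 and 150 in GPx4+/- HFHS, so these groups did not overlap, by a margin of under 1. Rps26 was named for its small p, and the share of all genes without overlap between these groups was not counted. Over both diets Rpl41 came first (-0.13, SE 0.05, 95% interval -0.22 to -0.03, adjusted p = 1.00), then Rpl18 (-0.09, SE 0.04, adjusted p = 1.00) and Rpl10a (-0.12, SE 0.06, adjusted p = 1.00). Rpl41 was 594, 618, 598, 598 and 559 in WT CNTL and 579, 490, 506, 586 and 576 in GPx4+/- CNTL. It was 581, 589, 589, 580 and 615 in WT HFHS and 568, 471, 526, 626 and 511 in GPx4+/- HFHS, and the genotypes overlapped on both diets.

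Whether the diet difference differed between genotypes was tested as an interaction, which called 0% of all genes and 0 members, and 0 members under every alternative run. At an unadjusted p under 0.05 there were 0 members and 7.14% of all genes by limma. The members' smallest p were those of Rpl7l1 (0.23, SE 0.12, 95% interval -0.03 to 0.49, adjusted p = 0.701), Rps26 (-0.10, SE 0.06, adjusted p = 0.711) and Rps16 (-0.14, SE 0.09, adjusted p = 0.739). From protein_coding transcripts alone the estimates of Rps26 (0.00182) and Rps16 (-0.02) were near 0, and that of Rps26 had turned. The interval of the interaction lay within ±0.5 for 81 of 85 members and within ±0.3 for 69. The median member interaction was -0.04 with 71 of 85 estimates negative, against 51.2% of all genes tested. It was -0.07 with 77 negative after quantile normalization and -0.10 with 77 negative without the 5 mice with high atrial marker sums. A diet difference that differed between genotypes was not shown for any single member.

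Carnosine on HFHS (WT HFHS + Carnosine minus WT HFHS, 10 mice) called 0% of all genes and 0 members, and 0 members under every alternative run. At an unadjusted p under 0.05 there were 1 member and 4.21% of all genes by limma. The median member difference was -0.03 and 67 of 85 estimates were negative, against 50.4% of all genes tested. Without WT HFHS + Carnosine 2, which had a high atrial marker sum and the highest summed level of all mice, it was -0.08 and 80 were negative. With TPM as deposited it was -0.11 with 82 negative, where the median of all genes was -0.07. Per total outside the mitochondrial genome it was -0.05 with 77 negative, where the median of all genes was -0.02. The intervals lay within ±0.5 for 84 members and within ±0.3 for 78. The smallest p were those of Rpl10-ps3 (-0.17, SE 0.07, 95% interval -0.33 to -0.02, adjusted p = 0.947), Rps28, a short small subunit protein (-0.11, SE 0.05, adjusted p = 0.947), and Rpl10a (-0.17, SE 0.09, adjusted p = 0.947). Merged with their copies Rps28 was -0.04 (95% interval -0.19 to 0.12) and Rpl10a -0.06 (95% interval -0.20 to 0.08).

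Rpl10-ps3 on chromosome 9 has the same 645 coding bases as Rpl10, the X-linked gene of a large subunit protein that joins late in assembly. Rpl10-ps3 was 324, 304, 290, 322 and 281 scaled TPM in WT HFHS and 284, 302, 260, 268 and 237 with carnosine. Rpl10 was 124, 112, 119, 174 and 171 in WT HFHS and 133, 187, 155, 158 and 152 with carnosine. The estimates had opposite signs, -0.17 for Rpl10-ps3 and 0.18 for Rpl10 (95% interval -0.11 to 0.48, adjusted p = 0.947). Merged, the 2 genes and their other copies gave -0.06 (95% interval -0.21 to 0.10).

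Rpl3l stood above its paralogue in every mouse. Rpl3 encodes a core protein of the large subunit near the peptidyl transferase centre, and Rpl3l its counterpart in striated muscle. Their coding sequences of 1212 and 1224 bases were 74.9% identical, and no near-identical copy linked them. The first 60 coding bases are shown, with the bases of Rpl3l that differ from Rpl3 in capitals (13 of 60).

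Rpl3: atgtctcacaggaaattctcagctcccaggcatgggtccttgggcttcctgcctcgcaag
Rpl3l: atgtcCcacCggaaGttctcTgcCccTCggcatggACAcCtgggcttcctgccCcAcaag

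Rpl3l (chr17:24727820-24736143, plus strand) was 219, 240, 185, 237 and 252 scaled TPM in WT CNTL, 191, 187, 230, 203 and 237 in GPx4+/- CNTL, 253, 191, 225, 185 and 240 in WT HFHS, 215, 183, 227, 192 and 189 in GPx4+/- HFHS and 214, 222, 181, 235 and 189 in WT HFHS + Carnosine. Rpl3 (chr15:80077791-80091868, minus strand) was 116, 118, 143, 112 and 102 in WT CNTL, 153, 128, 102, 127 and 113 in GPx4+/- CNTL, 113, 132, 110, 136 and 109 in WT HFHS, 102, 114, 96.3, 148 and 104 in GPx4+/- HFHS and 112, 128, 122, 101 and 108 in WT HFHS + Carnosine. Rpl3l was thus 1.25 to 2.47 times as high as Rpl3, and made up 64.2% ± 4.87 (SD, n = 25) of both.

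The pair shifted in opposite directions between mice of the same group. After subtracting group means, Pearson's r was -0.70 (permutation p = 0.00031, adjusted 0.0015 over 5 paralogue pairs) and Spearman's rho -0.75 (permutation p = 0.00013, adjusted 0.00065) over 25 mice, with 100000 two-sided permutations within groups. Without the 2 mice farthest from the median of Rpl3 r was -0.77, and without the 5 mice with high atrial marker sums it was -0.83. The sum of both genes varied little, from 293 to 366 scaled TPM.

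The 3 highest Rpl3 values were those of GPx4+/- CNTL 1 (153), GPx4+/- HFHS 4 (148) and WT CNTL 3 (143), the 3 mice with the highest atrial marker sums. The next was WT HFHS 4 (136), which had the highest sums of the fibroblast list (730 scaled TPM, against a range of 290 to 565 in the other mice) and of the smooth muscle and pericyte list (701). Split at the median mouse, the 12 mice with the lower cardiomyocyte marker sums (56292 to 61371) had Rpl3l between 181 and 230 with a median of 189. The other 13 (62057 to 68262) had it between 192 and 253 with a median of 235, so that these ranges overlapped. Rpl3 lay between 102 and 153 (median 118) in the 12 mice and between 96.3 and 148 (median 113) in the 13. In GPx4+/- CNTL 1 and WT CNTL 3 the smooth muscle and pericyte list summed to 262 and 268. Correlations of the marker sums with Rpl3 or Rpl3l were not computed, and their part in the result was not tested. In whole tissue, fewer cells of a type and less RNA per cell cannot be told apart.

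**Figure D5:**
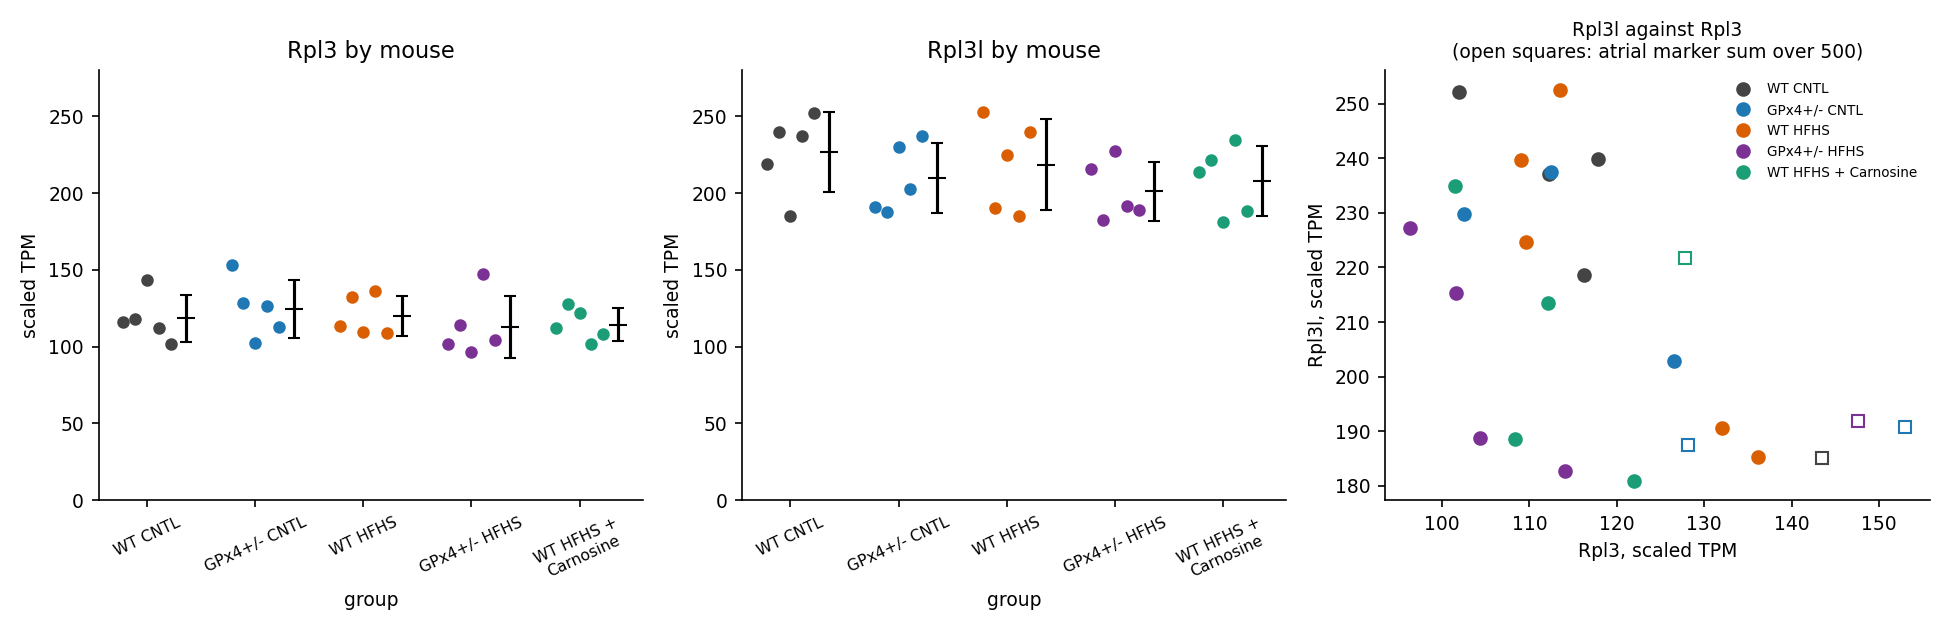
Left and middle, levels of Rpl3 and Rpl3l in each mouse by group (scaled TPM, axes from 0, mean ± SD of 5 mice beside the points), and right, Rpl3l against Rpl3 for the 25 mice with open squares for the 5 mice whose atrial marker sum exceeded 500. Rpl3l exceeds Rpl3 in every mouse, and mice with more Rpl3 have less Rpl3l.

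Neither gene was called by limma for diet, genotype or carnosine. Over both genotypes the diet difference was -0.06 for Rpl3 (95% interval -0.24 to 0.11) and -0.06 for Rpl3l (95% interval -0.20 to 0.09). With carnosine it was -0.07 for Rpl3 (95% interval -0.25 to 0.11) and -0.07 for Rpl3l (95% interval -0.29 to 0.15).

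In most other paralogue pairs the gene without the suffix was the higher. Rpl22 (157 scaled TPM) was 3.47 to 6.97 times as high as Rpl22l1 (31.7), Rps27 (576) 6.09 to 8.70 times as high as Rps27l (79.5), and Rpl7 (324) 12.2 to 21.7 times as high as Rpl7l1 (20.8). Rpl36al (120) and Rpl36a (104) stood closer, with a ratio of Rpl36al to Rpl36a from 0.971 to 1.38. Merged with their copies the order reversed, with Rpl36a at 187 (164 to 207 over the mice) and Rpl36al at 120 (107 to 134). Rpl39 was at 121 and Rpl39l at 0.171. Rps4x was at 333, and its counterpart Rps4l is not typed protein_coding in this annotation and was no member.

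The coding sequences of these pairs were 73.3% identical for Rpl22 and Rpl22l1, 76.1% for Rps27 and Rps27l, 64.8% for Rpl7 and Rpl7l1 and 87.9% for Rpl36a and Rpl36al. The opening of Rps27 and Rps27l (255 bases each) is shown because Rps27 was among the members with the smallest p, with the 18 of 60 bases of Rps27l that differ in capitals.

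Rps27: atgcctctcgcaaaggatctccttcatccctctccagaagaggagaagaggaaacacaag
Rps27l: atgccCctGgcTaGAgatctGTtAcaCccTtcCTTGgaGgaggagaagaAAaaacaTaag

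Within groups, Rpl22 and Rpl22l1 gave r = 0.43 (permutation p = 0.036, adjusted 0.09) and rho = 0.35 (permutation p = 0.09, adjusted 0.22), which did not pass the adjustment, and r was 0.38 without the 2 mice farthest from the median of Rpl22. For Rps27 and Rps27l r was 0.21 (permutation p = 0.36, adjusted 0.38) and rho 0.12 (permutation p = 0.58). For Rpl7 and Rpl7l1 r was -0.32 (permutation p = 0.18, adjusted 0.3) and rho -0.28 (permutation p = 0.25), and for Rpl36a and Rpl36al r was 0.20 (permutation p = 0.38, adjusted 0.38) and rho 0.15 (permutation p = 0.49). Without the 2 mice farthest from the median of the first gene, r was -0.02 for Rps27 and Rps27l and -0.03 for Rpl36a and Rpl36al, so these positive values rested on those mice. The inverse relation of Rpl3 and Rpl3l was the one of the 5 that passed.

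Most members varied little and varied together. The SD of log2 levels within groups had a median of 0.10 over the 85 members, against 0.15 over all genes tested and 0.11 over the other 1405 genes above 50 scaled TPM. It was largest for Rps27rt (0.48), which ranged from 5.68 to 17.2 scaled TPM, followed by Rpl22l1 (0.26), Rpl10 (0.22), Rpl12 (0.19) and Rpl3 (0.19), and smallest at 0.06. Of these 5, Rps27rt, Rpl10 and Rpl12 share coding sequence with another gene in full.

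Between pairs of members the median within-group correlation over 25 mice was 0.53, and 92.9% of pairs were positive. It was 0.49 for the 78 mitochondrial ribosomal protein genes and 0.13 for the 1405 other genes above 50 scaled TPM. These values share the scaling of each library and are descriptions. Against the mean of the other members, 74 of 85 had a correlation over 0.5, led by Rpl26 and Rps18 (both 0.92) and Rpl37a (0.91). The 11 others included Rpl7l1 (-0.24), Rpl5 (-0.07), Rps27rt (0.05), Rpl12 (0.13), Rps13 (0.18), Rpl3l (0.19) and Rpl3 (0.38).

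Other genes of translation were counted in the contrast of diet over both genotypes, against 8.33% called among all genes. Of 32 initiation factors, 4 were called. Eif3m, a subunit of the eIF3 scaffold, rose by 0.17 (SE 0.04, adjusted p = 0.00629 by limma), from 79.5 and 78.7 scaled TPM in WT CNTL and GPx4+/- CNTL to 87.3 and 90.6 in WT HFHS and GPx4+/- HFHS. Eif4e, the cap-binding protein, rose by 0.19 (adjusted p = 0.0492), while Eif3g, another eIF3 subunit, fell by 0.14 (adjusted p = 0.0201) and Eif6, which keeps the large subunit from joining early, fell by 0.13 (adjusted p = 0.0130). Their directions were mixed, 2 higher and 2 lower, and the list median was -0.02.

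Of 16 elongation and associated factors, 0 were called by limma and 2 had an unadjusted p under 0.05, with differences between -0.10 and 0.10. Of 50 ribosome biogenesis factors, 2 were called, Wdr12, of the PeBoW complex of large subunit assembly (0.22, adjusted p = 0.0179), and Gnl2, a nucleolar GTPase (-0.17, adjusted p = 0.0166). The list median was -0.05.

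Of 22 regulators in the mTORC1, Myc and TOP list, Larp1 was called (0.13, adjusted p = 0.0177). Larp1, the repressor that binds TOP mRNAs, averaged 20.5 and 20.1 scaled TPM in WT CNTL and GPx4+/- CNTL and 21.8 and 22.6 in WT HFHS and GPx4+/- HFHS. Of 78 mitochondrial ribosomal protein genes, 4 were called, Mrpl28 higher (0.24, adjusted p = 0.0157) and Mrps15 (-0.17, adjusted p = 0.00966), Mrps30 (-0.21, adjusted p = 0.0222) and Mrps31 (-0.14, adjusted p = 0.0358) lower. Of 292 genes named as pseudogenes of members, 23 were tested, and 0 were called by limma or had an unadjusted p under 0.05. In the genotype contrasts, the interaction and the carnosine contrast 0 genes of these lists were called by limma, and at most 5 genes of any list had an unadjusted p under 0.05. These were 5 of 50 ribosome biogenesis factors for genotype on CNTL, where 6.28% of all genes did. In WT mice the diet contrast called 0 genes of these lists by limma, with at most 9 genes of any list at an unadjusted p under 0.05. These were 9 of 50 ribosome biogenesis factors, where 16.5% of all genes did. Within GPx4+/- mice, where 3.34% of all genes were called, it called Larp1 (0.17, adjusted p = 0.0454), Larp4b, which binds mRNA (0.35, adjusted p = 0.0232), Eif3m (0.20, adjusted p = 0.0311) and the mitochondrial Mrps10 (0.30, adjusted p = 0.0496), all higher on HFHS, and 0 genes of these lists passed the test of the difference between genotypes.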

How the data were processed

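RNA-seq of heart tissue of 25 mice (left ventricular, per the extraction protocol in the labels) was used as deposited by the authors, as TPM for 119215 transcripts, and the labels' processing notes name kallisto 0.43.1, sleuth 0.30.0 and GRCm38. TPM keeps no read counts, so the depth behind each value in these files is unknown. Columns were matched to mice by library name, since the column positions given in the labels disagreed with the header. The 116772 transcripts found in GENCODE M21 were summed per gene. Sums were divided by a median-ratio factor per library (0.864 to 1.16, from 11879 genes) to give scaled TPM, and log2(scaled TPM + 0.5) was tested for genes with a mean of at least 1, so fold changes of low genes are understated. The 20 mice without carnosine were fitted as 4 groups and the 10 WT HFHS mice with and without carnosine apart, with limma 3.58.1 in R 4.3.3 (trend) and Benjamini-Hochberg adjustment over all genes, called at 0.05. Fits were tested on simulated data.

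Near-identical copies came from blastn 2.17.0. Sequence windows are from RefSeq (GRCm38.p6) and coding bases from the GENCODE M21 transcripts. Correlations used deviations from group means. Animals are separate, but the labels do not say which received dextrose or saline before sampling, which was not modelled. Replicate numbers do not pair the mice.

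Members and lists were chosen with earlier results of these data known. The text names, per contrast, the members called or the 3 with the smallest p, 8 paralogue pairs, the stalk proteins with Rpsa, Rps6 and Rps27a, the 5 highest and 3 lowest members, the 5 with the largest SD within groups, and list genes called for diet over both genotypes. Some genes that this rule names are not reported here. Other members named for their copies, transcript types, correlations or calls under an alternative were chosen after their values were seen.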

Additional observations from a re-analysis of the deposited data

Results flagged for a closer look

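Of 190 groups of 5 mice over 38 values, 15 held 1 mouse far from the others by Dixon's ratio (above 0.71), and chance gives about 1 in 20 groups. The 38 values are not separate measurements, because members rise and fall together and their sum is among the values. The 15 can therefore not be set against that rate. All values are scaled TPM. In GPx4+/- HFHS mouse 4 was the highest for 5 values. Its summed level of the members was 26600 (others 23100 to 23900), Rpl11 was 251 (213 to 220), Rpl7 351 (312 to 319), Rps15 694 (538 to 576) and Rps27 639 (504 to 521). In WT HFHS + Carnosine mouse 2 was the highest for Rps16 at 167 (142 to 148), Rps27a at 275 (219 to 228) and Rps29 at 1060 (812 to 882). Both mice had atrial marker sums above 500, 2701 and 585, whose part in these values was not tested.

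In GPx4+/- CNTL, mouse 1 was the lowest for Rps27l at 76.5 (81.9 to 84.0) and Rps27rt at 10.3 (13.4 to 14.0), and mouse 2 for Rplp0 at 428 (493 to 512). These mice had atrial marker sums of 7353 and 1486, and mouse 2 a hepatocyte marker sum of 1224, whose part was not tested either. In WT HFHS, mouse 5 was the highest for Rpl41 at 615 (580 to 589), mouse 3 the highest for Rps27a at 249 (228 to 232) and mouse 2 the lowest for Rpsa at 330 (356 to 364). Rpl36al was lowest in GPx4+/- HFHS 2 at 109 (121 to 124).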

How the results depend on the processing

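With all mice and the settings reported, 0 members were called in each of the 8 contrasts, and 0 were called under every alternative run for diet in WT, the genotype contrasts, the interaction and carnosine. For diet in GPx4+/-, quantile normalization called 1 member (Rpl14), leaving out 1 mouse gave 0 to 1 (Rps27 without GPx4+/- HFHS 4), and leaving out the mice with high atrial marker sums called 2. For diet over both genotypes, quantile normalization called 4 (Rps27a, Rpl14, Rps27 and Rpl24), TPM over the total outside the mitochondrial genome 1 (Rpl24), array weights 2 (Rps27a and Rps27), leaving out 1 mouse 0 to 2 and leaving out the mice with high atrial sums 3. Of all genes these settings called between 2.28% and 10.5%. All members called were lower on HFHS, and the cause of these changes was not tested. The replicate block called 0 members in every contrast, and 9 of 50 correlations between mice with the same number exceeded 0.1 (range -0.34 to 0.23).

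Of 655 alternatives of 25 log2 fold changes, 642 kept direction and side of the threshold, 11 passed it and 2 changed sign. These were Rps26 in the interaction, at 0.00182 from protein_coding transcripts alone, and Rpl10 with carnosine, at -0.0589 merged with its copies. With TPM as deposited the median of all genes shifted to -0.10 for diet in GPx4+/- and -0.11 for the interaction, with members at -0.17 and -0.15. The alternatives chosen after seeing the data were merging copies and leaving out the atrial mice.

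The summed level in scaled TPM moved with what was counted. From protein_coding transcripts alone it was 23514 in WT CNTL, 23480 in WT HFHS, 23392 in GPx4+/- CNTL and 22592 in GPx4+/- HFHS. With the pseudogenes named after members it was 26777, 26743, 26623 and 25712 in that order, and with near-identical copies 28708, 28633, 28502 and 27559, and 27983 with carnosine. As deposited, in TPM, it was 25530, 25563, 25996 and 23332, and 23660 with carnosine, so that GPx4+/- CNTL was then the highest group. TPM holds no counts, so no counting error can be given for members of low level.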
